A study of Mus musculus with 6 samples.

Results

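The 39 protein-coding Hox genes of the mouse were described in the perichondrium of limb bones, a fibrous sheath around cartilage that holds progenitors of cartilage and bone, at postnatal day 4 (P4). Members were all rows of the deposited count matrix whose Ensembl identifier is protein coding in the GENCODE M21 annotation and whose symbol is Hoxa, Hoxb, Hoxc or Hoxd followed by a number only, which gave 39 of 55536 genes. The study sequenced RNA of 3 wild-type libraries (WT, titled PC-WT) and 3 libraries of the genotype written Fbn1Scx-/- (titled PC-mut), in which Fbn1, the gene of the microfibril protein fibrillin-1, was deleted with Scx-Cre. Libraries are called here by group and title number, PC-WT-596, PC-WT-597 and PC-WT-795 for wild type and PC-mut-596, PC-mut-597 and PC-mut-795 for the knockout. In the column names of the count matrix, PC-mut-596 carries the tag ScxCRE, and PC-mut-597 and PC-mut-795 carry the tag PC-Koscx. What this difference marks is not known here. The labels give no strain, no allele or Cre state of the wild-type mice, no limb (fore or hind) and no statement that libraries came from separate animals. Replicate spread may therefore be partly technical. Scx-Cre is driven by the scleraxis gene of tendon and ligament progenitors, so cells of the sheath that never expressed scleraxis keep Fbn1.

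Hox genes encode transcription factors that bind DNA through a homeodomain and give cells along the body axis and along the limb their regional identity. They lie in the clusters A to D, and genes at the same place in different clusters form a paralogue group, numbered from 1 at the anterior to 13 at the posterior end. In limb development, genes of groups 9 and 10 of clusters A and D act in the upper limb, group 11 in the middle segment and group 13 in the hand and foot. In these data, group 10 carried the highest Hox level of wild-type limb perichondrium, led by Hoxa10 and Hoxc10. No Hox gene passed the test between knockout and wild type with all 6 libraries.

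On GRCm38, cluster A (11 genes) spans chr6:52155590-52260880 on the minus strand, cluster B (10 genes) chr11:96194316-96368256, cluster C (9 genes) chr15:102921103-103036852 and cluster D (9 genes) chr2:74668310-74765142, the last 3 on the plus strand. The homeobox, the 180 bases that encode the homeodomain, was found in all 39 genes and lies within 1 exon in each. Those of the 2 genes with the highest level, of their near-silent paralogue Hoxd10, and of the distal genes Hoxa13 and Hoxd13 are shown, because paralogues with closely similar DNA-binding parts had very different levels. Capitals mark the 51 bases that encode the recognition helix, the part that lies in the major groove of DNA.
Hoxa10: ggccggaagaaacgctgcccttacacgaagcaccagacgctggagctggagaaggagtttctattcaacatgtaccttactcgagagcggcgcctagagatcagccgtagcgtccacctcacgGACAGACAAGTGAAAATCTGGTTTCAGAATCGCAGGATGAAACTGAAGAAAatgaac
Hoxc10: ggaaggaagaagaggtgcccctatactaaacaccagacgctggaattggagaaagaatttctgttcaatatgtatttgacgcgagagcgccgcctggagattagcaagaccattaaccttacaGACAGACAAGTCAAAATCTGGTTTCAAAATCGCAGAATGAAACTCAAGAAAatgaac
Hoxd10: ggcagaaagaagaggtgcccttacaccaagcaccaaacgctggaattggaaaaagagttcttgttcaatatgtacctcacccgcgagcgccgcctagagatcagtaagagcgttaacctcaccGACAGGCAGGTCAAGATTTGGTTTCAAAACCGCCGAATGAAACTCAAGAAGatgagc
Hoxa13: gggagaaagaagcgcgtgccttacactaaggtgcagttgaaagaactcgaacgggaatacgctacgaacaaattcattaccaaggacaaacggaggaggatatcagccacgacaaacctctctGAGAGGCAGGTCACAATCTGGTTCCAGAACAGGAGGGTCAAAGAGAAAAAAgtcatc
Hoxd13: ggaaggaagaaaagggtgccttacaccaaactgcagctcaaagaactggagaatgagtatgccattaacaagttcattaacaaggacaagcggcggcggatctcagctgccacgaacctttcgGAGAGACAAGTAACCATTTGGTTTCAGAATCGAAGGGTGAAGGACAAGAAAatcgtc
These are GENCODE M21 transcript sequences, 5′ to 3′ on the coding strand. The Hoxa10 homeobox lies at chr6:52232554-52232733 and that of Hoxa13 at chr6:52258928-52259107, both on the minus strand, in exon 2 of 2 and exon 5 of 5. On the plus strand, the Hoxc10 homeobox lies at chr15:102970848-102971027, that of Hoxd10 at chr2:74694141-74694320 and that of Hoxd13 at chr2:74669930-74670109, each in exon 2 of 2.

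The Hoxa10 homeobox matched that of Hoxc10 at 80.6% of bases and that of Hoxd10 at 78.9%, and Hoxc10 matched Hoxd10 at 82.8%. The Hoxa13 and Hoxd13 homeoboxes matched at 73.9%. Between groups the match was lower, at 55.6% for Hoxa10 with Hoxa13. Over the 42 pairs of the same paralogue group the median match was 80.6% (range 67.2% to 93.9%), against 61.7% for the 172 pairs within a cluster but of different groups. The longest run of bases shared by any pair of the 39 homeoboxes was 52 bases, in Hoxa6 and Hoxb4, neither of which reached 1 CPM in any library.

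Levels are given as CPM, a gene's count scaled to a common library size. Library totals lay between 7209217 and 10316017 counts, and all 39 Hox genes together had 709 to 1137 counts in a library, so most Hox values rest on few reads. The targeted gene had 119, 84.7 and 63.5 CPM in PC-WT-596, PC-WT-597 and PC-WT-795 and 10, 6.75 and 7.1 CPM in PC-mut-596, PC-mut-597 and PC-mut-795 (log2 fold change -3.48, SE 0.29, edgeR adjusted p = 1.03e-04, 15712 genes tested). Markers of perichondrium and fibroblasts (10 of 10 at or above 1 CPM in every library) summed to 37200 to 39550 CPM. Skeletal muscle markers ranged from 3166 to 10510 CPM in wild type and 2304 to 4665 CPM in the knockout, with the maximum in PC-WT-597. Chondrocyte markers summed to 2091, 2156 and 3340 CPM in PC-WT-596, PC-WT-597 and PC-WT-795 and 2952 to 3026 CPM in the knockout. Most of that sum was Col11a1 (1707, 1818 and 2853 CPM, knockout 2594 to 2714 CPM). The 10 markers did not move together: 6 had a log2 fold change above 0 and 4 below. Among the 4 were Comp (-1.05) and Acan (-0.54), whose groups did not overlap (all genes: 11.9%). Tendon markers summed to 919, 681 and 713 CPM in wild type and 563, 560 and 679 CPM in the knockout. The sums did not overlap, with nearest values of 681 and 679 CPM. The markers' log2 fold changes were -0.72 (Fmod), -0.66 (Scx), -0.58 (Thbs4), -0.004 (Mkx), -0.002 (Tnmd) and 0.41 (Kera). Fmod alone had 531, 335 and 277 CPM of the sums in wild type and 221, 246 and 228 CPM in the knockout. Macrophage sums overlapped (91.3 to 139 CPM against 97.6 to 99.6 CPM). Schwann cell markers summed to 17.9 to 39.1 CPM against 32.2 to 71.8 CPM, with 0 of the markers of any of these lists past the test. The part of tendon tissue in the Hox values was not tested. Xist was above 100 counts in PC-mut-596 and PC-mut-597 and not in the other 4 libraries. PC-WT-795 stood apart in the comparison: without it 1517 of 16702 genes passed the test, with all libraries 1. In bulk tissue, fewer cells of a type and less RNA per cell cannot be told apart.

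In wild-type perichondrium, 11 of 39 Hox genes were on, taken here as at least 1 CPM in each of the 3 wild-type libraries. They were Hoxa7, Hoxa9, Hoxa10 and Hoxa11 of cluster A, Hoxb2 of cluster B, Hoxc6, Hoxc8, Hoxc9 and Hoxc10 of cluster C, and Hoxd8 and Hoxd9 of cluster D. The count was 7 with a minimum of 2 CPM or of 1 CPM per kilobase of exon, and 18 with a minimum of 0.5 CPM. The 7 genes that had 0 counts in every wild-type library were Hoxa6, Hoxb8, Hoxb13, Hoxc12, Hoxd1, Hoxd3 and Hoxd12. A count of 0 over the wild-type libraries allows a level of up to 0.106 CPM (3 counts over the group, counting error only). For Hoxd3, 2613 of 4191 exon bases are shared with other genes on the same strand, and in these files 0 of 765 genes with wholly shared exons on one strand had any count, so its 0 does not show that it is off. Its neighbour Hoxd4, with 4 wild-type counts, shares 1542 of 2948 exon bases in the same way.

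**Figure D1:**
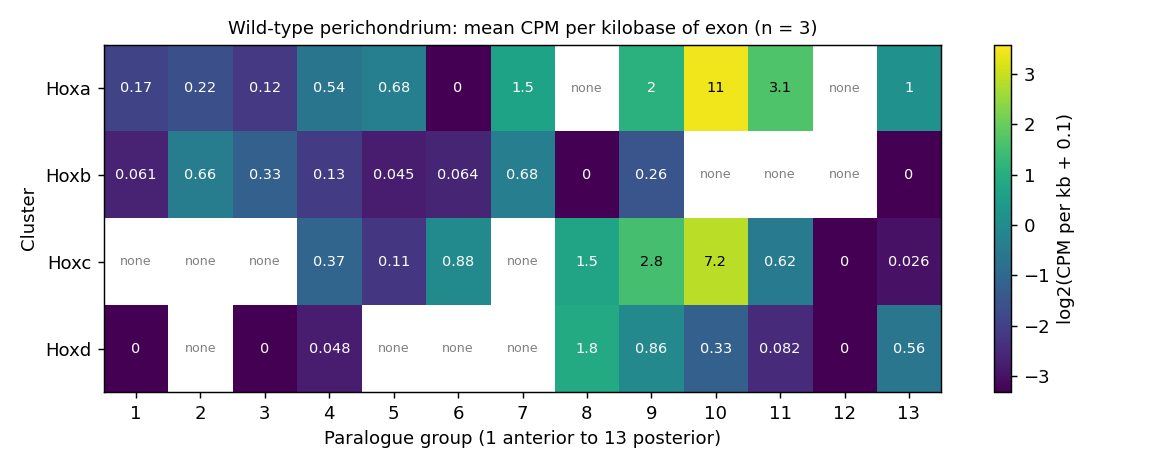
Mean level of each of the 39 Hox genes in the 3 wild-type libraries, in CPM per kilobase of exon, by cluster (rows) and paralogue group (columns); colour is log2 of the level plus 0.1, and white cells are positions where the mouse has no gene. Hoxa10 (10.8) and Hoxc10 (7.25) are the brightest cells, and Hoxd10 in the same column is at 0.335.

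Levels between genes are compared per kilobase of exon, from the wild-type means. Hoxa10, a gene of upper limb and girdle patterning, was highest at 10.8 ± 1.97 CPM per kilobase (SD, n = 3), above 78.6% of all tested genes. Hoxc10, its cluster C paralogue, followed at 7.25 ± 0.23 CPM per kilobase, and the libraries of the pair did not overlap (9.44 to 13.1 for Hoxa10, 7.11 to 7.51 for Hoxc10). Hoxa11, which acts in the middle limb segment, was at 3.11 ± 1.01, Hoxc9 at 2.81 ± 1.91, Hoxa9 at 2.05 ± 0.672 and Hoxd8 at 1.77 ± 0.405 CPM per kilobase. The ranges of these 4 genes overlapped. Within each of the 3 libraries Hoxa11 was above Hoxa9 and Hoxd8 per kilobase. The order of Hoxc9 against Hoxa11, and of Hoxa9 against Hoxd8, differed between libraries. The order of Hoxa11 and Hoxa9 rests on their annotated length, 2287 and 5580 exon bases. In CPM, Hoxa9 was above Hoxa11 in each wild-type library (10.9, 7.93 and 15.4 against 8.93, 4.53 and 7.9). Hoxc8 (1.54), Hoxa7 (1.51) and Hoxa13 (1.03) came next per kilobase, and the remaining 30 genes were each below 1 CPM per kilobase.

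Summed by paralogue group, group 10 took 46.3% ± 4.53 (SD, n = 3) of the Hox level per kilobase in wild type. Group 9 took 15.0% ± 3.88, group 11 9.63% ± 2.83, group 8 8.32% ± 1.23, group 7 5.51% ± 1.17 and group 13 4.08% ± 2.18. Groups 1 to 6 together with group 12, which had 0 wild-type counts, made up the rest, no group of them above 2.75%. The posterior groups 9 to 13 held 75.0% ± 3.61, the central groups 4 to 8 21.1% ± 3.16 and the anterior groups 1 to 3 3.95% ± 0.448. By cluster, A held 50.9% ± 6.35, C 34.3% ± 5.65, D 9.21% ± 1.58 and B 5.61% ± 0.178.

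The paralogues of a group were unequal. In group 10, Hoxd10 was at 0.335 CPM per kilobase beside 10.8 and 7.25 for Hoxa10 and Hoxc10. In group 11, Hoxa11 was at 3.11, Hoxc11 at 0.621 and Hoxd11 at 0.0819 CPM per kilobase. In group 9 the order was Hoxc9 (2.81), Hoxa9 (2.05), Hoxd9 (0.856) and Hoxb9 (0.256). In group 13, Hoxa13 and Hoxd13 were at 1.03 and 0.559, Hoxc13 had 2 counts over the wild-type libraries, and Hoxb13 had 0. The posterior genes of cluster A (Hoxa9 to Hoxa13) carried 42.7% ± 8.75 of the Hox level and those of cluster D (Hoxd9 to Hoxd13) 4.62% ± 0.672. Cluster D thus had 1 gene outside groups 9 to 13 that was on, Hoxd8, at a higher level than any of its posterior genes.

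Anterior and central genes were low. Of groups 1 to 3, Hoxb2, a hindbrain patterning gene, was the only one on, at 2, 3.02 and 1.94 CPM in PC-WT-596, PC-WT-597 and PC-WT-795, and 953 of its 3488 exon bases overlap other genes on the opposite strand. Hoxb3 had 0.95, 1.32 and 1.94 CPM, and 2250 of its 4251 exon bases are shared with antisense genes. In groups 4 to 6, Hoxc6 was the only gene on (1.62, 3.11 and 1.66 CPM). Hoxa5 reached 0.944 to 1.81 CPM, Hoxa4 0.139 to 1.7 CPM and Hoxc4 0.416 to 1.79 CPM. The other genes of groups 1 to 6 had means of at most 0.734 CPM (Hoxa3), and Hoxb7 in group 7 had 0.661 to 1.52 CPM.

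The comparison of knockout with wild type asks whether this pattern differs when Fbn1 is lost. The sum over all 39 genes was 39.7 ± 0.6 CPM per kilobase in wild type and 39.3 ± 4.59 in the knockout (SD, n = 3 each). The posterior share was 75.0% ± 3.61 and 72.5% ± 0.331, and group 10 held 46.3% ± 4.53 and 49.1% ± 2.81, with overlapping libraries in both. Of the 39 genes, 14 passed the filter on low counts and 25 did not. Of the 14, 0 passed the edgeR test (all genes: 0.00636%) and 0 had an unadjusted p under 0.05 (all genes: 10.5%). DESeq2 also gave 0 and 0, and limma-voom 0 and 2. The lowest edgeR unadjusted p were 0.051 (Hoxa7) and 0.062 (Hoxc8), close to that limit. In 0 of the 14 were the libraries of the groups without overlap (all genes: 11.9%). The log2 fold change was above 0 for 6 and below 0 for 8 genes, with a median of -0.05 (all genes 0.01). The split was 8 and 6 with limma-voom (median 0.02), and 10 and 4 with a correction for GC content (median 0.19). Fold changes over 15701 genes ran against transcript GC content (Spearman's rho -0.62, and -0.03 after the correction, a description across genes), and the 14 Hox genes had a median GC of 53.3% against 49.1% for all tested genes.

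Hoxa10 had 30.9, 32.4 and 42.7 CPM in PC-WT-596, PC-WT-597 and PC-WT-795 and 34.7, 37.2 and 34.6 CPM in the knockout libraries of the same numbers. The knockout values lay inside the wild-type range, and the log2 fold change was 0.01 (SE 0.22, 95% interval -0.45 to 0.47, edgeR adjusted p = 0.987). Hoxc10 had 14.3, 13.6 and 13.6 CPM against 19.4, 12.2 and 14.4 CPM, with knockout libraries on either side of the wild type (log2 fold change 0.15, SE 0.25, interval -0.38 to 0.67, edgeR adjusted p = 0.797). For these 2 genes, the intervals leave room for changes of up to about 0.67 on the log2 scale, so equal levels were not shown.

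Hoxa11 had 8.93, 4.53 and 7.9 CPM in wild type and 6.74, 7.8 and 4.73 CPM in the knockout (log2 fold change -0.15, SE 0.33, edgeR adjusted p = 0.840). Its groups overlapped throughout, and 800 of its 2287 exon bases are shared with the antisense gene Hoxa11os. Hoxa9, which acts with group 10 in the upper limb, had 10.9, 7.93 and 15.4 CPM against 11.4, 9.45 and 11.9 CPM (log2 fold change -0.05, SE 0.28, edgeR adjusted p = 0.943). Hoxd8 had 5.7, 5.28 and 3.6 CPM against 5.68, 5.4 and 6.38 CPM, with PC-WT-795 the lowest of the 6 (log2 fold change 0.25, SE 0.30, edgeR adjusted p = 0.716). Its log2 fold change was 0.60 with the GC correction (SE 0.27, edgeR adjusted p = 0.772) and 0.07 without PC-WT-795.

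Hoxc9 had 5.41, 12 and 3.05 CPM in wild type and 4.49, 5.25 and 2.98 CPM in the knockout (log2 fold change -0.72, SE 0.43, interval -1.64 to 0.21, edgeR adjusted p = 0.502). PC-WT-597 alone was high, and all knockout values lay below the 5.41 CPM of PC-WT-596. Without PC-WT-597 the log2 fold change was -0.056. That library also had the highest sum of skeletal muscle markers, 10510 CPM. The part of muscle tissue in this value was not tested.

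**Figure D2:**
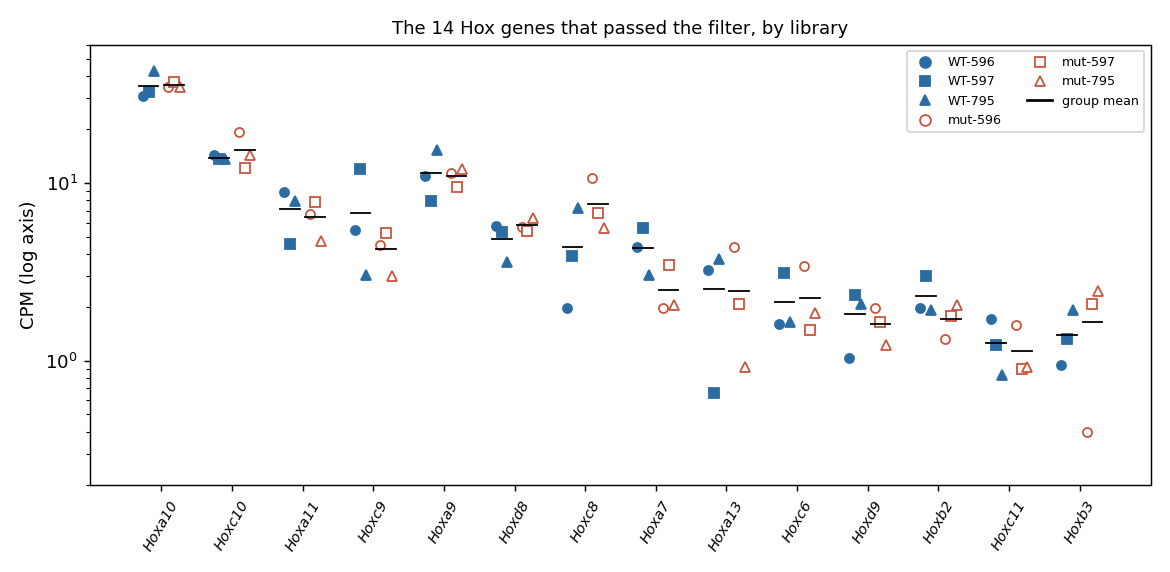
CPM (log axis) of the 14 Hox genes that passed the filter, ordered by wild-type level per kilobase; filled symbols are wild-type and open symbols knockout libraries, the symbol shape is the library number, and bars are group means. The groups overlap in all 14 genes, and Hoxa10 stands highest in all 6 libraries.

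Hoxc8 and Hoxa7 had the largest log2 fold changes in each direction and were singled out after their values were seen. Hoxc8, a gene of thoracic axial patterning, had 2, 3.87 and 7.21 CPM in wild type and 10.7, 6.75 and 5.56 CPM in the knockout (log2 fold change 0.84, SE 0.42, interval -0.05 to 1.73, edgeR adjusted p = 0.476). Only PC-WT-795 reached the knockout range, and of the wild-type libraries it was the highest for 8 of 10 chondrocyte markers and the lowest for Acan (101 CPM) and Comp (31.7 CPM). The part of cartilage tissue in this value was not tested. The Hoxc8 log2 fold change was 0.48 without PC-WT-596, 0.51 without PC-mut-596 and 0.38 with a covariate for the libraries with Xist. Hoxa7, a trunk patterning gene, had 4.37, 5.57 and 3.05 CPM in wild type and 1.98, 3.45 and 2.06 CPM in the knockout (log2 fold change -0.82, SE 0.38, interval -1.64 to 0.0035, edgeR adjusted p = 0.475). PC-mut-597 lay above PC-WT-795, so the groups overlapped by 1 library on each side.

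As a share of the Hox level per kilobase, group 8 ran from 7.12% to 9.58% in wild type and from 11.3% to 13.2% in the knockout. Group 7 ran from 4.19% to 6.41% and from 2.14% to 4.14%. These 2 of the 13 groups were picked after their values were seen and carry no test, and each follows mainly the gene just described, Hoxc8 or Hoxa7.

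**Figure D3:**
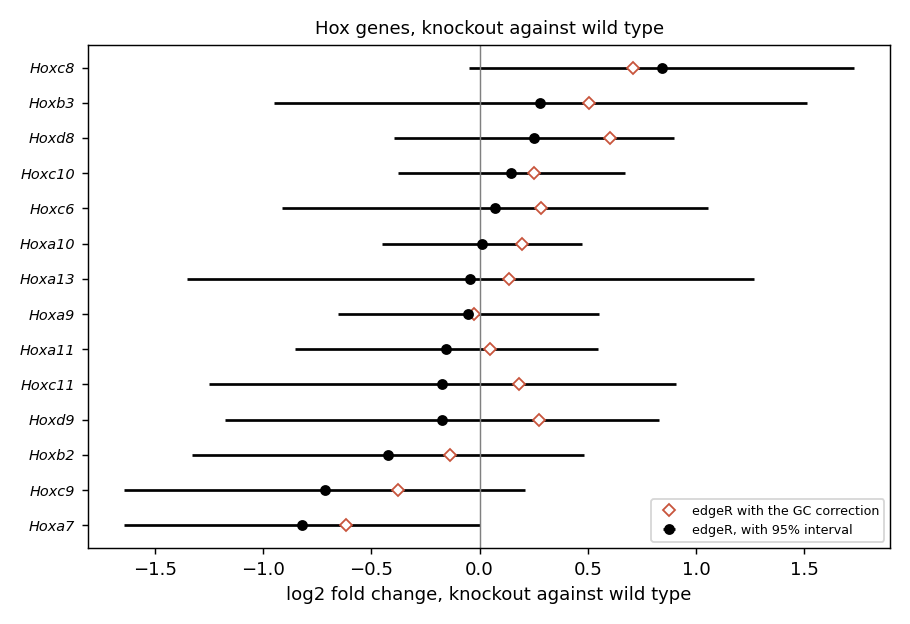
Log2 fold changes (knockout against wild type) for the 14 Hox genes tested, from edgeR with 95% intervals (black) and from edgeR with the GC correction (open diamonds, no interval drawn). The intervals of all 14 genes include 0, from Hoxc8 at 0.84 to Hoxa7 at -0.82, and the GC-corrected values lie to the right of the uncorrected ones for all but Hoxc8.

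The remaining tested genes had wide intervals. Hoxa13, the distal gene of cluster A, had 3.23, 0.661 and 3.74 CPM in wild type and 4.36, 2.1 and 0.926 CPM in the knockout, a spread within each group that exceeds any difference between them (log2 fold change -0.04, SE 0.61, interval -1.35 to 1.27). Hoxb2 (-0.42), Hoxc11 (-0.17), Hoxd9 (-0.17), Hoxc6 (0.07) and Hoxb3 (0.28) had log2 fold changes with standard errors of 0.42 to 0.58. These genes had 27 to 67 counts per group.

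Of the 25 genes that did not pass the filter, Hoxb13, Hoxc12 and Hoxd3 had 0 counts in all 6 libraries. Hoxa6, Hoxb8, Hoxd1 and Hoxd12 had 0 counts in wild type and 1 to 4 counts over the knockout libraries. Hox genes with at least 1 count numbered 29 to 31 in a wild-type library and 32 to 34 in a knockout library. The Hox counts were 835 to 1137 and 709 to 968. Genes with 1 to 4 counts in a group enter these numbers. The matching number over all genes was not taken, so no difference is read from them.

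Among genes under the filter, Hoxd13 was singled out after its values were seen. Hoxd13 patterns the digits and forms the distal pair with Hoxa13. It had 29, 12 and 2 counts in PC-WT-596, PC-WT-597 and PC-WT-795 and 2, 1 and 3 counts in the knockout, or 2.76, 1.13 and 0.277 CPM against 0.264, 0.15 and 0.309 CPM. PC-WT-596 and PC-WT-597 were high, and PC-WT-795 lay within the knockout range. Over all libraries the wild-type level was 6.06 times the knockout level (exact 95% interval 2.57 to 17.4, 43 against 6 counts), an interval that covers counting error only. For PC-WT-795 alone the ratio was 1.11 (0.109 to 6.19). An exact two-sided permutation test on log2 CPM, with a small constant added before the log, gave p = 0.2. With 3 against 3 libraries it cannot go below 0.1. Without the filter the log2 fold change was -2.50 (SE 0.75, edgeR adjusted p = 0.0768). In the authors' deposited table of 1643 genes, Hoxd13 is the only Hox gene, with a log2 fold change of -2.54. That table compares the same groups, so it is not an independent measurement. It holds 1114 lower and 529 higher genes. In the main fit, 1119 lower and 529 higher genes had an edgeR unadjusted p under 0.05.

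Without PC-WT-795, 17 Hox genes passed the filter and 2 passed the test, where 9.08% of all tested genes did. Hoxd13 was then lower in the knockout (log2 fold change -2.92, SE 0.71, edgeR adjusted p = 0.0250) and Hoxc8 higher (log2 fold change 1.37, SE 0.39, edgeR adjusted p = 0.0427). Both calls rest on leaving out that library. Leaving out PC-WT-596 or PC-mut-596 lowered the Hoxc8 value, as given above. It was 0.77 without PC-WT-597, 0.92 without PC-mut-597 and 1.03 without PC-mut-795, beside 0.84 with all libraries. Of the other posterior genes of cluster D, Hoxd9 was tested with all libraries (51 wild-type and 38 knockout counts). Hoxd10, Hoxd11 and Hoxd12 were near the detection limit. Hoxd10 had 0.76, 0.0944 and 0.97 CPM in wild type and 1.45, 0.15 and 0.412 CPM in the knockout, and Hoxd11 had at most 4 counts in any library.

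**Figure D4:**
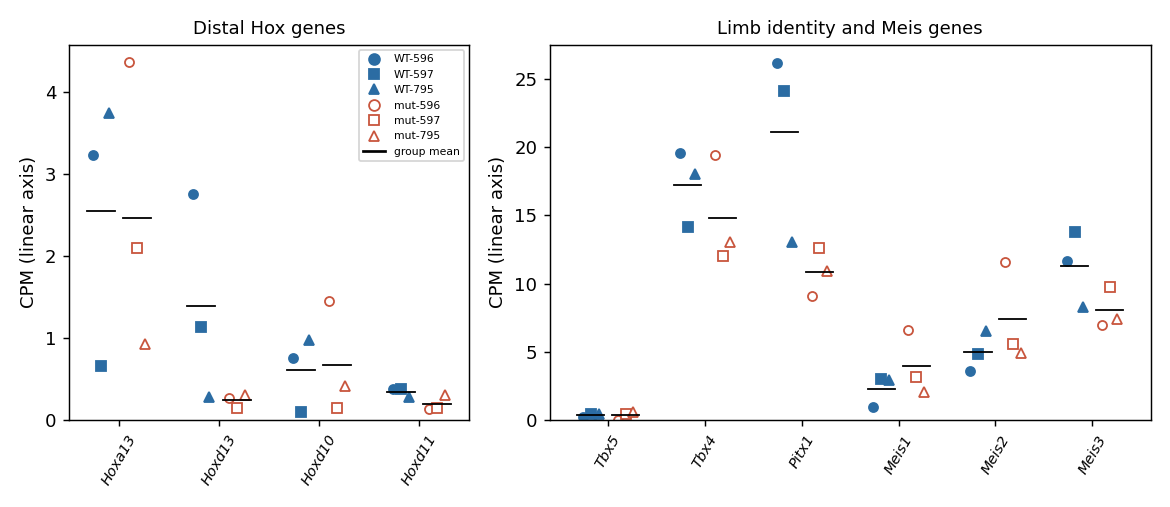
CPM by library (linear axes) of the distal Hox genes (left) and of the limb identity and Meis genes (right); filled symbols are wild-type and open symbols knockout libraries, the shape is the library number, and bars are group means. Hoxd13 is high in PC-WT-596 and PC-WT-597 only, and Tbx5 is near 0 and Tbx4 between 12 and 19.6 CPM in all 6 libraries. Pitx1 is lower in every knockout library, where groups did not overlap in 11.9% of all tested genes.

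Genes that mark forelimb and hindlimb were read in every library. Tbx5, the forelimb factor, was at or below 0.617 CPM in every library. Tbx4, the hindlimb factor, had 19.6, 14.2 and 18 CPM in wild type and 19.4, 12 and 13.1 CPM in the knockout (log2 fold change -0.22, SE 0.26, edgeR adjusted p = 0.710). Pitx1, which sets hindlimb identity upstream of Tbx4, had 26.2, 24.2 and 13 CPM against 9.11, 12.6 and 10.9 CPM. Every knockout library lay below every wild-type library, where groups did not overlap, in either direction, in 11.9% of all tested genes. The Pitx1 log2 fold change was -0.97 (SE 0.28, edgeR adjusted p = 0.459). Without PC-WT-795 it was -1.23 (SE 0.24, edgeR adjusted p = 0.0122), in a fit that 9.08% of all tested genes passed. With the GC correction it was -0.49 (SE 0.22, edgeR adjusted p = 0.772), Pitx1 transcripts having a GC content of 65.8%. The authors' deposited table gives -0.98 for Pitx1. Both groups thus showed Tbx4 and Pitx1 and little Tbx5. Hoxc10, a gene of the hindlimb rather than the forelimb bud, was the second Hox gene by wild-type level per kilobase. Its cluster C neighbour Hoxc11 was not on in wild type (0.621 CPM per kilobase). The limb of origin is not in the labels and was not tested.

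Hox proteins bind DNA with partners of the TALE homeodomain class, the Pbx, Meis and Pknox proteins. Of 9 such genes, 8 passed the filter, 5 with a log2 fold change above 0 and 3 below, and 0 passed the test (all genes: 0.00636%) or had an unadjusted p under 0.05 (all genes: 10.5%). Meis1 and Meis2, which mark the proximal limb bud, had log2 fold changes of 0.78 (SE 0.51) and 0.57 (SE 0.37), and in both the highest value was that of PC-mut-596, at 6.6 and 11.6 CPM. Meis3 was at -0.49 (SE 0.28). The groups did not overlap in 1 of the 8 (all genes: 11.9%), Pknox1, at 10.3, 11.6 and 11.5 CPM against 17.7, 12.2 and 12.8 CPM (log2 fold change 0.35, SE 0.25, edgeR adjusted p = 0.545). Pbx4 had 14 counts over all libraries and was not tested.

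Hox clusters are set by Cdx factors, retinoic acid receptors, Gdf11 and the Polycomb and trithorax proteins. Of 23 such genes, 20 passed the filter, 10 in each direction, and 0 passed the test (all genes: 0.00636%). The groups did not overlap in 2 genes lower in the knockout, Rara and Phc1, and in 1 higher, Gdf11 (all genes: 11.9%). Cdx1, Cdx2 and Cdx4, which act in the early embryo, had 0 counts in all libraries. An unadjusted p under 0.05 was found for 2 of the 20, beside 10.5% of all genes. Rara, a retinoic acid receptor, had 14.1, 15.3 and 6.93 CPM in wild type and 5.41, 6.3 and 6.07 CPM in the knockout (log2 fold change -1.04, SE 0.31, edgeR adjusted p = 0.459). With the GC correction it was -0.57 (SE 0.25), and the authors' deposited table gives -1.05. Without PC-WT-795, 2 of the 20 passed the test, where 9.08% of all tested genes did. They were Rara (log2 fold change -1.32, SE 0.26, edgeR adjusted p = 0.0128) and Suz12, a Polycomb subunit (0.89, SE 0.22, edgeR adjusted p = 0.0260). Gdf11, a signal that activates posterior Hox genes, had 5.98, 5.66 and 7.21 CPM against 8.32, 10.2 and 9.77 CPM (log2 fold change 0.59, SE 0.27, edgeR adjusted p = 0.467).

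The clusters also hold 46 annotated genes other than the 39, 20 of them with at least 1 count, and 19 overlap the span of a Hox gene. The kit named in the labels was taken to leave strand unmarked. Antisense reads and Hox reads in overlapping exons then cannot be told apart, so counts of the antisense genes may include Hox reads. Of the overlapping genes, the one with most counts in cluster A was the antisense gene Hoxa11os, with 64, 22 and 21 counts in wild type and 17, 20 and 18 in the knockout, where Hoxa11 itself had 94, 48 and 57 against 51, 52 and 46. PC-WT-596 was highest for both. In cluster B it was the antisense gene Hoxb3os with 156 counts over all libraries, in cluster D the antisense gene Hoxd3os1 with 142, and in cluster C Mir196a-2, on the strand of the Hoxc genes, with 1. Hotair, on the opposite strand of cluster C and overlapping no Hox gene, had 10 counts.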

How the data were processed

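RNA of 6 libraries was measured; per the labels, extraction used the Rneasy micro kit and cDNA came from Smart-seqV4 low-input amplification with NexteraXT. Values in the deposited matrix are raw counts per gene. The submitters' processing notes name the build GRCm38.p6 and DESeq2. The aligner, counter and settings are not given in the sources read. In these counts, genes with wholly shared exons had a count in 0 of 765 cases on the same strand and in 68.5% of 460 on opposite strands. The authors' deposited table holds log2 fold changes; its base was judged from the values.

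Groups came from the titles. Of 55536 identifiers, 55450 had a symbol in GENCODE M21, which also gave union exon lengths and GC content. Counts were scaled by TMM to CPM, and per kilobase of exon for comparisons between genes. The test was edgeR 4.0.16 (glmQLFit, glmQLFTest, filterByExpr by group, two-sided, Benjamini-Hochberg over 15712 genes, threshold 0.05) in R 4.3.3, with no covariates. It was also run on simulated data with a common dispersion, no GC trend and no library that stands apart. That run therefore does not cover these features of the data. Standard errors are the fold change over the square root of F. Totals of 7209217 to 10316017 counts and a common biological coefficient of variation of 0.249 set the precision. Homeoboxes were located by their conserved recognition helix in the transcript with the longest coding sequence.

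Genes named were all Hox genes by level, with tests for those with an unadjusted p under 0.05 and for the 6 highest per kilobase in wild type, Fbn1, Tbx5, Tbx4, Pitx1, members of the TALE and upstream lists with an unadjusted p under 0.05, and the overlapping non-coding gene with most counts per cluster. Others were named after their values were seen. Members, lists and tests were chosen with earlier results of these data known. Alternatives were RLE and upper-quartile scaling, no filter, a stricter filter (1 CPM in 5 libraries), DESeq2 1.42.0, limma-voom (limma 3.58.1), the shared number as a block, a per-library loess GC correction, a covariate for libraries with Xist above 100 counts, other minima for a gene to be on, and each library left out. Protein sequences were not used here, and values of 1 listed gene are not reported here.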

Additional observations from a re-analysis of the deposited data

How the results depend on the processing

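Counts of Hox genes past the test were 0 under every alternative that kept all 6 libraries, and 0 to 2 with 1 library left out, the 2 without PC-WT-795. The number of Hox genes at an unadjusted p under 0.05 was less stable. It was 0 in the main fit, and 1 with RLE scaling, upper-quartile scaling, the stricter filter or the GC correction. With limma-voom it was 2, with no filter 4, and with 1 library left out 0 to 4. Over all genes the count was 1, and 270 with no filter, 4 with the replicate block and GC correction together, 0 with the Xist covariate (Fbn1 then at an edgeR adjusted p of 0.104), and 1 to 1517 with 1 library left out (12 without PC-mut-795, 1517 without PC-WT-795). TALE cofactors stayed at 0 throughout. Hox genes on in wild type numbered 11, against 18 at 0.5 CPM, 7 at 2 CPM, 7 at 1 CPM per kilobase and 7 at 1 CPM per kilobase of unshared exon (added after seeing the data), and 12 to 13 with 1 wild-type library left out.

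Genes near a log2 fold change of 0 changed sign. Hoxa10 was at -0.023 with upper-quartile scaling, -0.0072 with no filter, -0.0014 with the stricter filter, -0.028 with the Xist covariate, and -0.083 to 0.15 with 1 library left out. With 1 library left out, Hoxc10 ran from -0.076 to 0.28, Hoxa11 from -0.42 to 0.049 and Hoxa9 from -0.28 to 0.19. Hoxa11 was at 0.049 with the GC correction and 0.092 with the replicate block and GC correction. Hoxa9 was at 0.019 with limma-voom, 0.0038 with the replicate block and GC correction and 0.073 with the Xist covariate. Tbx4 was at 0.026 with the GC correction and 0.0083 with the block added. The cause was not tested. Without the filter, Pitx1 had an edgeR adjusted p of 0.0438. Hoxd13 could also be tested without PC-mut-596 and without PC-mut-597, with edgeR adjusted p of 0.851 and 0.540.

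Libraries with the same number did not deviate together (correlations -0.18, 0.24 and -0.20), so the numbers were not taken as pairs. With the replicate block, 0 Hox genes and 1 gene in all passed the test. Depth limits the 25 Hox genes under the filter, for which no difference was detectable at this depth apart from the values given.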
